A study of Mus musculus with 36 samples.

Results

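Cytosolic ribosomal protein genes encode the proteins of the small (*Rps*) and large (*Rpl*) subunits of the ribosome and of its acidic stalk (*Rplp*). The 82 members were all the protein-coding genes, of 38887 genes measured, whose symbols follow the *Rps* and *Rpl* naming pattern: 48 *Rpl*, 31 *Rps* and 3 *Rplp* genes spread over 19 chromosomes, 14 of them on chromosome 7. Their mRNAs are among the most abundant of a cell, many start with a terminal oligopyrimidine tract through which mTOR and Larp1 act on their translation, and their output is tied to growth. Haematopoietic stem cells make less protein than most progenitors. *Rpl32* also served as the reference gene of the quantitative RT-PCR in this study. RNA had been sequenced from LT-HSC and HPC-1 sorted from the BM, at 5000 cells per library (the sample labels call HPC-1 ST-HSC). All mice carried the *Apoe*-/- genotype. The mice were *Apoe*-/-, *Apoe*-/-*Il27ra*+/- or *Apoe*-/-*Il27ra*-/-, called intact, heterozygous and knockout here. All were fed WD for 12 weeks from 8 weeks of age and were infused with Ang II or PBS in the last 2 weeks. The 17 LT-HSC and 19 HPC-1 libraries formed 12 groups of 1 to 4, with a single library for intact LT-HSC after PBS. All levels are given in CPM, counts scaled to the same effective library size with TMM factors. Counts on *Apoe* remained in these *Apoe*-/- mice, at 7.22 to 27.4 CPM in LT-HSC and 0 to 11.3 CPM in HPC-1 libraries.

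*Il27ra*, the targeted gene, stood in LT-HSC after PBS at 17.1 CPM in the intact library, at 42.7, 24.1 and 25.5 in heterozygous and at 9.41, 6.93 and 16.3 in knockout libraries, and after Ang II at 42.8 and 51.7 in intact, 30.1, 25.4, 27.0 and 32.8 in heterozygous and 16.3, 11.6, 16.1 and 19.3 in knockout libraries. In HPC-1 it stood after PBS at 8.25 and 11.9 in intact, 15.5, 11.04 and 9.95 in heterozygous and 6.69, 11.1 and 8.34 in knockout libraries, and after Ang II at 10.2, 8.87 and 6.06 in intact, 5.45, 9.57, 14.3 and 16.4 in heterozygous and 6.62, 5.91, 4.63 and 9.03 in knockout libraries. Counts on the gene thus remained in every knockout library. The LT-HSC genotypes were apart after Ang II, the intact LT-HSC library after PBS lay close to the knockout libraries, and the genotypes overlapped in HPC-1. After Ang II, *Il27ra* was lower in knockout than in intact LT-HSC, by −1.56 ± 0.32 log2 (estimate ± standard error throughout; adjusted p 0.0195, all 4 knockout libraries below both intact ones).

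The cell types differed in the genes of their sorting gates: *Slamf1*, which encodes CD150, and 7 other LT-HSC markers were all higher in LT-HSC, and *Cd48* and 5 other HPC-1 markers were all lower. Replicate 2 of knockout LT-HSC after PBS stood apart, with an LT-HSC marker sum of 267 CPM against 795 to 1673 in the other LT-HSC libraries and 142 to 354 in HPC-1, and an HPC-1 marker sum of 1989 against 59.1 to 442 and 1074 to 2629. Replicate 2 of knockout LT-HSC after Ang II had the highest neutrophil granule (8174 CPM), erythroid (3275) and eosinophil and mast cell (459) marker sums of all libraries, replicate 3 of knockout LT-HSC after PBS had an erythroid sum of 3250, and the intact LT-HSC libraries had intestinal epithelium marker sums of 359, 508 and 549 CPM against 34.8 to 127 in the other LT-HSC. In 12 libraries the Y-linked genes summed to 0 to 0.317 CPM and *Xist* stood at 3526 to 4574 CPM, and in the other 24 the Y-linked genes summed to 178 to 329 CPM and *Xist* stood at 0 to 71.7 CPM. All intact libraries had Y-linked counts, whereas 8 of the 12 libraries without them were LT-HSC. Of the 12, 11 had more counts in all (4475778 to 6861078) than any of the 24 (1980283 to 3722262), so the sex of the mice, which the labels do not give, and depth cannot be told apart in these data.

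The members together took up 4.31% to 6.13% of all counts in LT-HSC (median 4.77%, mean 4.99 ± 0.545, SD, n = 17) and 4.76% to 6.60% in HPC-1 (median 5.35%, mean 5.47 ± 0.410, n = 19). The ranges overlapped. No library had counts on mitochondrially encoded genes, so the shares are of counts without them. In LT-HSC the group means after PBS were 5.37% for the single intact library (95% interval 5.34% to 5.40%), 4.93 ± 0.406% for heterozygous (n = 3) and 5.41 ± 0.820% for knockout (n = 3), and after Ang II 4.66 ± 0.155% (n = 2), 4.83 ± 0.592% (n = 4) and 4.93 ± 0.570% (n = 4). In HPC-1 they were 5.33 ± 0.469% (n = 2), 5.27 ± 0.515% (n = 3) and 5.59 ± 0.263% (n = 3) after PBS, and 5.27 ± 0.252% (n = 3), 5.82 ± 0.588% (n = 4) and 5.40 ± 0.217% (n = 4) after Ang II, in the same order. Groups overlapped within each cell type, except that the single intact LT-HSC library after PBS lay above both intact libraries after Ang II. The highest LT-HSC value, 6.13%, came from the library with HPC-1-like markers. The share was also higher in libraries without Y-linked counts (median 5.70%) than in those with them (5.18%). The interval of the single library covers counting error only, and fewer cells of a type and less RNA per cell cannot be told apart.

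**Figure D1:**
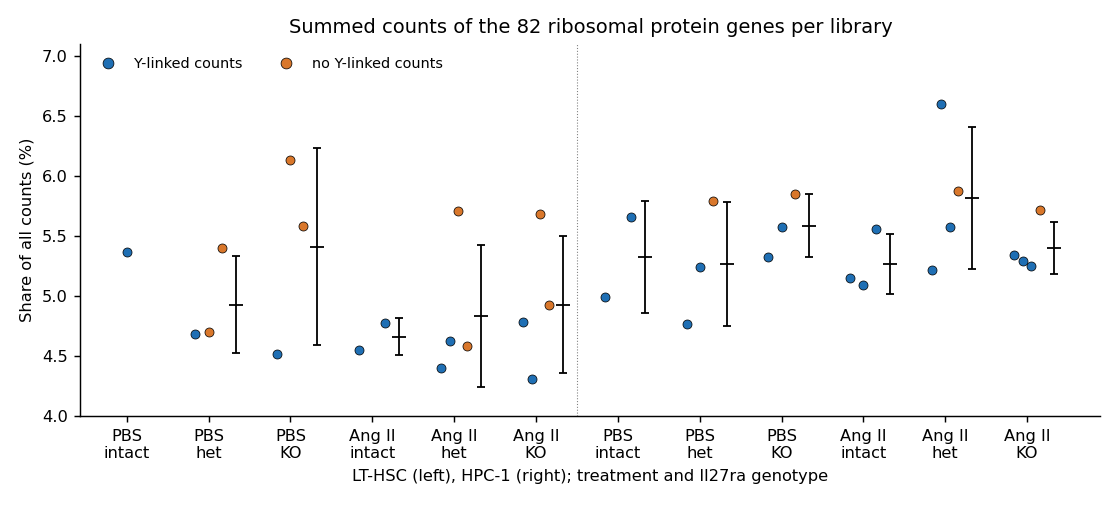
Share of all counts on the 82 ribosomal protein genes in each library, by cell type, treatment and genotype (het, heterozygous; KO, knockout). Bars give group mean and SD; orange marks libraries without Y-linked counts.

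Per kilobase of transcript, the most abundant members were *Rpl26* (3363 CPM per kb), the stalk gene *Rplp2* (2538) and *Rpl23a* (2051). The least abundant were the paralogues *Rpl39l* (0.0506), *Rpl10l* (0.0818), *Rpl3l* (0.237), *Rpl22l1* (35.9) and *Rps27l* (43.2). *Rpl39l* never passed 1 count and *Rpl10l* never passed 5, and neither was tested. *Rpl3l* had 0 to 1 counts in LT-HSC libraries and 0 to 8 in HPC-1. Of the other paralogues, *Rps27l* stood at 7.50% to 16.4% of the *Rps27* counts in LT-HSC libraries with Y-linked counts and 27.6% to 76.7% in those without, and at 9.23% to 54.7% and 54.7% to 68.1% in HPC-1. *Rpl7l1* had a median of 10.7% of the *Rpl7* counts in LT-HSC and 10.2% in HPC-1, and *Rpl22l1* 3.62% and 3.18% of *Rpl22*. Among members above 10 CPM, the spread over the 36 libraries (SD of log2 CPM) was widest for *Rpl22l1* (0.72), *Rps27* (0.67) and *Rpl37* (0.60), and narrowest for *Rpl23* (0.16), *Rps4x* (0.16) and *Rps3a1* (0.18). Ribosomal protein genes have many processed pseudogenes, and 239 named ones were in the annotation. *Rps12* (22 copies), *Rpl31* (21), *Rps19* (14) and *Rpl21* (11) had the most copies, of which many had 0 counts. The most abundant copy was *Rps6-ps4*, with a mean of 1280.3 CPM in LT-HSC and 1563 in HPC-1, where *Rps6* itself had 629.9 and 753. How far a copy holds counts of its member was not tested, so the levels of *Rps6* and of other members with copies are uncertain.

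Some of the members lay apart by the Y-linked counts of the library. *Rps27*, of the small subunit, stood at 27.2 to 59.1 CPM (median 49.99) in the 12 libraries without Y-linked counts and 62.3 to 174 (median 114) in the 24 with them. *Rpl21*, of the large subunit, stood at 851 to 1239 CPM against 1244 to 1920. In neither gene did the libraries overlap. These were 2 of 80 members with every value lower in the libraries without Y-linked counts, where 22 of 18013 genes (0.122%) were so, and 0 members had every value higher, where 6 genes (0.0333%) were so. These counts compare values and not p-values, and no edgeR or DESeq2 test was made. *Rps21*, at 135 to 363 CPM in libraries without Y-linked counts against 73.6 to 180 in those with them, and *Rpl41*, at 398 to 639 against 219 to 456, lay mostly higher, with overlap. Within each cell type the same order of medians was seen for the 4 genes.

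**Figure D2:**
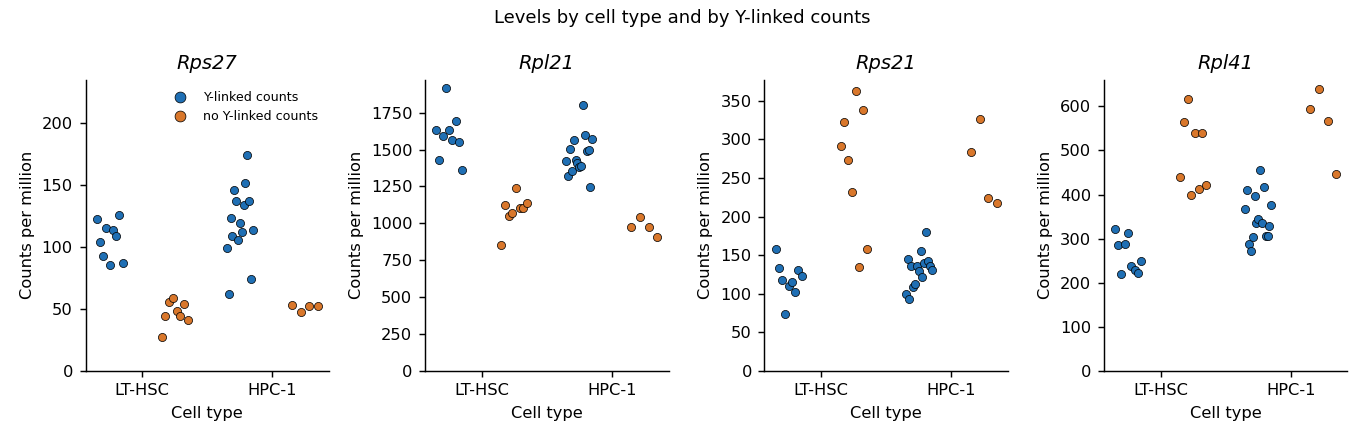
CPM of *Rps27*, *Rpl21*, *Rps21* and *Rpl41* in each library, by cell type. Blue marks libraries with Y-linked counts and orange those without.

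LT-HSC were compared with HPC-1 as the mean of the differences within 5 strata of treatment and genotype, leaving out intact mice after PBS, where LT-HSC had 1 library. By edgeR, 45 of 80 tested members were lower in LT-HSC and 0 were higher, whereas 18.5% of all 18013 tested genes were lower and 17.9% were higher. DESeq2 called 40 members lower and 0 higher, against 15.9% and 21.9% of all genes. In subsets chosen after seeing the data, edgeR called 8 of 79 members lower in the libraries without Y-linked counts (8 LT-HSC and 4 HPC-1), against 8.205% of all genes, and 55 of 79 in those with them, against 15.2%. The median over the members was −0.25 log2 in the first and −0.31 in the second. With Y-linked counts as a covariate 62 of 80 were lower, against 18.97%. At an unadjusted p under 0.05, 54 members (67.5%) differed, all of them lower, against 43.2% of all genes in either direction. The median over the members was −0.26 log2 against 0.03 over all genes, and 79 of 80 estimates were negative. By subunit, 29 of 46 *Rpl* (median −0.27), 15 of 31 *Rps* (−0.23) and 1 of 3 *Rplp* genes (−0.23) were lower. *Rpl3l* was among the 45 with counts near 0 in both cell types. The other 44 had a median of −0.31 and ranged from −0.82 to −0.15, and the 35 tested members that were not called had a median of −0.15. Whether the p-values rest on separate mice is not stated in the sample labels. Legends of the paper give numbers of mice per genotype without tying each library to a mouse. The p-values thus measure the spread between samples.

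The direction was shared by the strata. The number of members lower in LT-HSC was 60 of 80 in intact, 68 in heterozygous and 63 in knockout mice after PBS, and 66, 79 and 75 after Ang II, with medians of −0.16, −0.23 and −0.13 and of −0.26, −0.39 and −0.27 log2. Over all genes the medians were 0.00, 0.15 and 0.01 and 0.00, 0.06 and 0.05. In all 6 strata 42 members were lower, and the stratum of intact mice after PBS rested on a single LT-HSC library. How many of all genes were lower in each stratum, or in all 6, was not counted. The smallest median came from knockout mice after PBS, the group that held the LT-HSC library with HPC-1-like markers.

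The 5 members with the smallest p-values were *Rpl4* of the large subunit, *Rps24* of the small subunit, *Rpl7a* of the large subunit, *Rps27a*, which encodes a small subunit protein fused to ubiquitin, and *Rps15a* of the small subunit. *Rpl4* stood at 1233 to 1949 CPM (median 1445) in LT-HSC and 1697 to 2403 (median 1923) in HPC-1, and *Rps24* at 616 to 1175 (median 971) against 1015 to 1537 (median 1311). *Rpl7a* stood at 502 to 853 CPM (median 627) against 680.2 to 1006 (median 805), *Rps27a* at 467 to 808 (median 628) against 745 to 1232 (median 835), and *Rps15a* at 264.9 to 555 (median 327) against 397 to 545 (median 492). Each gene had most LT-HSC libraries at the low end, yet the ranges overlapped. *Rpl4* was lower in LT-HSC by −0.42 ± 0.06 log2 (adjusted p 1.18e-06), and 16 of 17 LT-HSC libraries lay below the HPC-1 median. *Rps24* was lower by −0.46 ± 0.08 (adjusted p 2.54e-05; 17 of 17 libraries), *Rpl7a* by −0.37 ± 0.07 (2.70e-05; 16), *Rps27a* by −0.39 ± 0.07 (5.02e-05; 17) and *Rps15a* by −0.42 ± 0.08 (5.17e-05; 16). The 1 LT-HSC library above the HPC-1 median of *Rpl4* was replicate 2 of knockout mice after PBS.

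**Figure D3:**
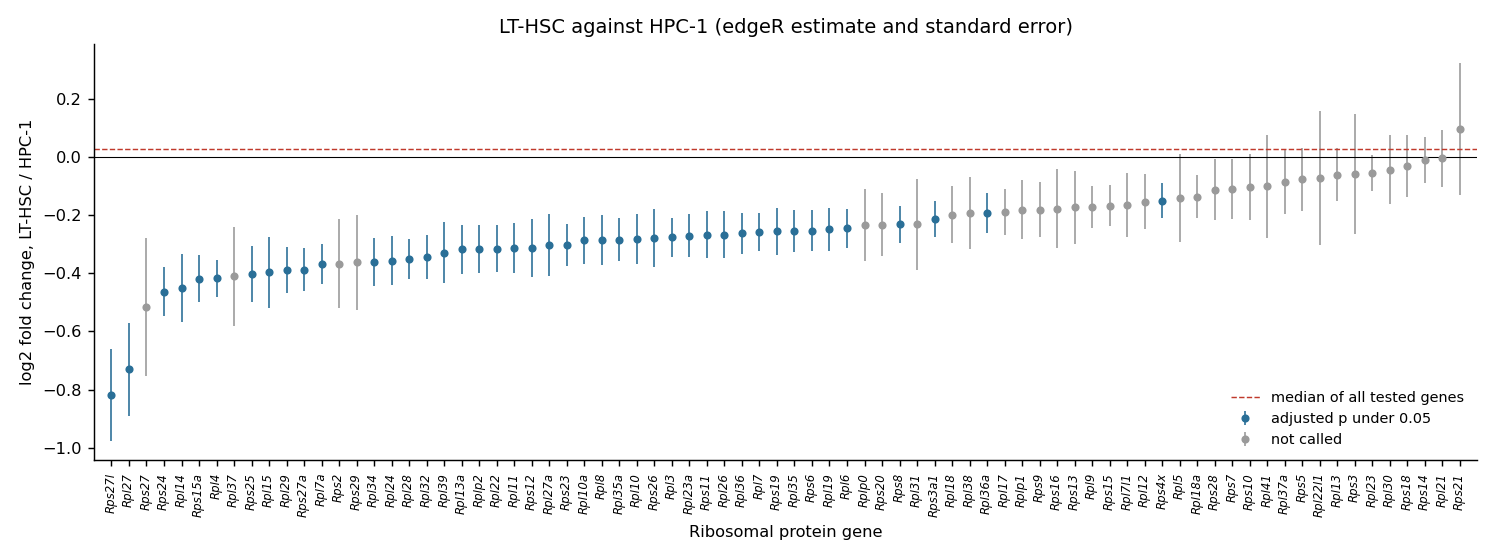
Log2 fold change of LT-HSC against HPC-1 (estimate ± standard error, edgeR) for 78 of the 80 tested members in rank order. *Rpl3l*, near 0 counts in both cell types, and 1 other member are not shown. *Rps21* was the 1 member with a positive estimate (0.09) and is shown.

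*Rpl32*, the reference gene of the quantitative RT-PCR, stood at 492 to 779.8 CPM (median 657) in LT-HSC and 665 to 1019 (median 797) in HPC-1, with overlap. It was lower in LT-HSC by −0.34 ± 0.08 log2 (adjusted p 0.000304; 17 of 17 libraries below the HPC-1 median). In LT-HSC its means were 738 CPM in the intact library, 615 ± 106 in heterozygous and 688 ± 79.8 in knockout mice after PBS, and 669.6 ± 102, 631 ± 98.7 and 649 ± 75.0 after Ang II. In HPC-1 they were 739.8 ± 81.6, 735 ± 47.3 and 823 ± 62.2 after PBS and 869 ± 85.6, 863 ± 182 and 839 ± 115 after Ang II. Most of these groups overlapped within a cell type, and *Rpl32* was not called in any comparison of treatment or genotype.

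Among the stalk genes, *Rplp2* was lower in LT-HSC (−0.32 ± 0.08, adjusted p 0.00224, 14 of 17 libraries below the HPC-1 median), whereas *Rplp0* (−0.23 ± 0.12, adjusted p 0.146, 11 libraries) and *Rplp1* (−0.18 ± 0.10, 0.167, 13 libraries) were not called. Of the genes whose proteins bind and restrain Mdm2, *Rpl11* was lower (−0.31 ± 0.09, adjusted p 0.00344, 15 libraries) and *Rpl5* was not called (−0.14 ± 0.15, 0.554, 12 libraries). *Rps6*, whose protein is the S6 kinase substrate, was lower (−0.25 ± 0.07, adjusted p 0.00388, 16 libraries), as were *Rps19*, mutated in Diamond-Blackfan anaemia (−0.26 ± 0.08, 0.0105, 13 libraries), and *Rpl13a* of the interferon-responsive GAIT complex (−0.32 ± 0.08, 0.00241, 14 libraries). Among genes with paralogues, *Rpl3* (−0.28 ± 0.07, adjusted p 0.000824, 17 libraries), *Rpl7* (−0.26 ± 0.06, 0.00136, 17), *Rpl10* (−0.28 ± 0.09, 0.00865, 13), *Rpl22* (−0.32 ± 0.08, 0.00157, 16) and *Rpl39* (−0.33 ± 0.10, 0.0115, 15) were lower. Over 14 alternatives other than leaving a replicate out, the *Rpl7* estimate ranged from −0.34 to −0.02, and the call was lost in 1. The X-linked *Rps4x* was called at the edge of the threshold (−0.15 ± 0.06, adjusted p 0.0499, 16 libraries). Its call was lost in 27 of 33 fits with a replicate left out and in 11 of 14 other alternatives. *Rps27l* had the largest difference of the called members outside *Rpl3l*, at −0.82 ± 0.16 (adjusted p 5.91e-05, 16 libraries; 8.66 to 32.4 CPM in LT-HSC and 14.5 to 40.6 in HPC-1), while *Rps27* was not called (−0.51 ± 0.24, 0.0955, 13 libraries). *Rpl7l1* (−0.17 ± 0.11, adjusted p 0.268, 14 libraries) and *Rpl22l1* (−0.07 ± 0.23, 0.955, 10 libraries) were not called either.

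Many other genes of protein synthesis were lower in LT-HSC as well. Over all 18013 tested genes, edgeR called 18.5% lower and 17.9% higher. Of 77 tested mitochondrial ribosomal protein genes 52 were lower (median −0.47), of 50 ribosome biogenesis genes 43 (−0.43), of 36 translation factor genes 30 (−0.38) and of 5 ribosome components outside the naming pattern all 5 (−0.31), and 0 of them were higher by edgeR. *Npm1* (−0.77) and *Ncl* (−0.70) were lower among biogenesis genes, and of 16 regulators of the members 4 were lower, among them *Larp1* (−0.49) and *Myc* (−0.95), 2 were higher, among them *Mycn* (3.21), and 10 were not called. Cell type markers differed along with the members: 6 of 6 megakaryocyte genes and 6 of 9 erythroid genes were higher in LT-HSC, and of 9 neutrophil granule genes 4 were lower and 1 was higher. Neutrophil granule genes summed to 29.6 to 118 CPM in 14 of 17 LT-HSC libraries and to 1351, 3988 and 8174 in 3 knockout libraries, against 2430 to 7271 in HPC-1. *Mpo* had the highest mean of the list in both cell types (0.485 to 3517 CPM, median 4.71, in LT-HSC and 2204 to 6053, median 4792, in HPC-1), and 0 genes of the list were without counts. Erythroid genes summed to 15.4 to 886 CPM (15 libraries) and to 3250 and 3275 (2 knockout libraries) in LT-HSC, and to 13.5 to 619 in HPC-1. The part of other cells and of cell state in the difference between the members was not tested.

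The region around the transcription start was read for 62 members with 74 annotated starts (15 bases on each side, 30 in all). A run of at least 8 C or T was found at 37.8% of the members' starts (28 of 74) and 3943 of all 32851 starts, CTTTC at 25.7% and 7.57%, and CTTCC at 29.7% and 13.6%. The run was found at 42.2% of the starts of members called lower in LT-HSC (19 of 45) and 33.3% of those tested and not called (9 of 27). Most starts of members (46 of 74) thus had no such run. Windows depend on the annotated start, and that of *Rpl26* ended at 68901580, before its GENCODE start at 68901583. Lack of a run in a window thus does not show that the mRNA lacks the tract, which was not tested. No start was read for *Rps27a*, so it has no window. Windows follow for the other members among the 5 with the smallest p-values and for the S6 kinase substrate gene *Rps6*. Further windows are for the genes of the Mdm2-binding proteins and for *Rpl26*, the most abundant per kilobase. All windows have the longest run of C or T in capitals (build GRCm38.p6, start positions and sequence from RefSeq). They are *Rpl4* at chr9:64173372-64173401 (+), *Rpl7a* at chr2:26910792-26910821 (+), *Rps15a* at chr7:118116133-118116162 (−), *Rps24* at chr14:24490663-24490692 (+) and, with a run of 4, at chr14:24490738-24490767 (+), *Rps6* at chr4:86857353-86857382 (−) and, with runs of 3 or 4, *Rpl5* at chr5:107900513-107900542 (+), *Rpl11* at chr4:136053379-136053408 (−) and *Rpl26* at chr11:68901551-68901580 (+).
Rpl4: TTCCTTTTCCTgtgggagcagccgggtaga
Rpl7a: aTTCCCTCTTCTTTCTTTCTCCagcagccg
Rps15a: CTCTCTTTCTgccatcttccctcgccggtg
Rps24: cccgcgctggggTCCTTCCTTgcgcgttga
Rps24, second start: tccggcgccgtagccatcatggtgagTCTC
Rps6: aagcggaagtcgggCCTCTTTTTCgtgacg
Rpl5: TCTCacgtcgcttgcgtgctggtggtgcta
Rpl11: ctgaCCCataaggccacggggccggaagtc
Rpl26: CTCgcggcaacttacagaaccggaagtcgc

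Within each cell type 79 members were tested, as *Rpl3l* did not pass the filter on low counts there. In LT-HSC of heterozygous or knockout mice, 0 of 79 members were called by edgeR between Ang II and PBS. Intact LT-HSC were not compared, as they had a single library after PBS. In heterozygous mice 0 members had an unadjusted p under 0.05, against 4.93% of the 16365 tested genes, and 0 were called by DESeq2. In all, 0 genes (0%) were called by edgeR. The estimates had a median of 0.00 log2 and ran from −0.49 to 0.42, with *Rpl21* (0.29 ± 0.20) and *Rpl19* (0.18 ± 0.15) of the large subunit among the positive and *Rps29* (−0.44 ± 0.35) and *Rps26* (−0.30 ± 0.25) of the small subunit among the negative ones. In knockout mice DESeq2 called 0 members and edgeR called 0% of all genes. An unadjusted p under 0.05 was reached by 2 members, both lower (0.917% of all genes). These were *Rpl22*, at 402, 795 and 679 CPM after PBS and 379, 460.3, 556 and 472 after Ang II (−0.43 ± 0.18), and *Rpl23a*, at 971, 1400 and 1203 against 871, 944, 971.5 and 996 (−0.34 ± 0.15), both of the large subunit. Both genes overlapped between the treatments and their highest values came from the library with HPC-1-like markers. Over all members 75 of 79 estimates were negative, with a median of −0.18, and without that library 47 of 79 were negative, with a median of −0.02.

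Between knockout and heterozygous LT-HSC after PBS, 0 of 79 members were called by edgeR and by DESeq2, and 0% of all genes were called by edgeR. An unadjusted p under 0.05 was reached by 2 members, both higher, against 3.996% of all genes. These were *Rpl23a*, at 1116, 679 and 945 CPM in heterozygous mice and 971, 1400 and 1203 in knockout mice (0.38 ± 0.17), and *Rpl4*, at 1305, 1233 and 1417 against 1481, 1949 and 1445 (0.30 ± 0.14). Only *Rpl4* had all knockout above all heterozygous values. The highest knockout value of both came from the library with HPC-1-like markers. Over the members 73 of 79 estimates were positive, with a median of 0.19, and without that library 48 of 79 were positive, with a median of 0.04. Between the same genotypes after Ang II, 0 members were called by edgeR or DESeq2, where edgeR called 0% of all genes. An unadjusted p under 0.05 was reached by 0 members, against 2.60% of all genes. Estimates ran from −0.21 to 0.32, with *Rpl31* (0.32 ± 0.31) and *Rps28* (0.26 ± 0.24) among the positive and *Rplp2* (−0.17 ± 0.16) and *Rpl23a* (−0.14 ± 0.14) among the negative ones.

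Among the comparisons within a cell type, those with intact LT-HSC after Ang II, which had 2 libraries, gave the widest estimates. Between knockout and intact, 0 of 79 members were called by edgeR where 277 genes (1.69%) were, and 13 had an unadjusted p under 0.05 (5 higher and 8 lower; 16.5%) against 17.7% of all genes. DESeq2 called 0 members higher and 3 lower, *Rpl19* (−0.48), *Rpl26* (−0.60) and *Rpl37* (−1.15), all of the large subunit, against 1.89% of all genes lower. Between heterozygous and intact, 0 members were called by edgeR or DESeq2 where 136 genes (0.831%) were called by edgeR, and 13 (5 higher and 8 lower) had an unadjusted p under 0.05 against 15.7% of all genes. The medians over the members were −0.02 and −0.01 log2.

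*Rps13*, of the small subunit, stood after Ang II at 135 and 104 CPM in intact, 131, 225, 269.8 and 174 in heterozygous and 198, 157, 273 and 211 in knockout LT-HSC, and *Rpl15*, of the large subunit, at 56.3 and 83.0, at 109, 129.7, 188 and 111 and at 110.1, 101, 163 and 149. *Rpl26* stood at 2193 and 2115, at 1944, 1579, 1412 and 1188 and at 1572, 1548, 1383 and 1223, and *Rpl19* at 1086 and 1215, at 956, 860.0, 864 and 735 and at 828, 871, 848 and 780.3. *Rpl15* was low and *Rpl26* and *Rpl19* were high in both intact libraries without overlap, and *Rps13* overlapped in heterozygous mice only. These genes were named for their small p-values in these comparisons, and how many of all genes lay apart in this way was not counted. Estimates of knockout against intact were 0.82 ± 0.27 log2 for *Rps13*, 0.92 ± 0.34 for *Rpl15*, −0.57 ± 0.18 for *Rpl26* and −0.63 ± 0.21 for *Rpl13a* (adjusted p 0.122, 0.161, 0.112 and 0.132), and of heterozygous against intact 0.75 ± 0.27 for *Rps13*, 0.96 ± 0.34 for *Rpl15*, −0.48 ± 0.18 for *Rpl26* and −0.42 ± 0.16 for *Rpl19* (0.183, 0.178, 0.207 and 0.210). None of these adjusted p-values passed the threshold. The last 2 values listed for each heterozygous and knockout group came from libraries without Y-linked counts, while both intact libraries had them. Of 13 tested intestinal epithelium genes, 9 were lower in either genotype than in intact LT-HSC. Over all 16365 tested genes, edgeR called 92 lower in knockout and 36 lower in heterozygous than in intact LT-HSC. The first 2 values of each group came from libraries with Y-linked counts and totals of a like size. A fit on the libraries with Y-linked counts, chosen after seeing the data, gave 0.60, 0.63, −0.44 and −0.41 log2 for *Rps13*, *Rpl15*, *Rpl26* and *Rpl19* in knockout against intact and 0.58, 0.78, −0.29 and −0.34 in heterozygous against intact, with standard errors of 0.16 to 0.29 and 0 of the 4 genes called in either. The part of other cells was not tested.

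**Figure D4:**
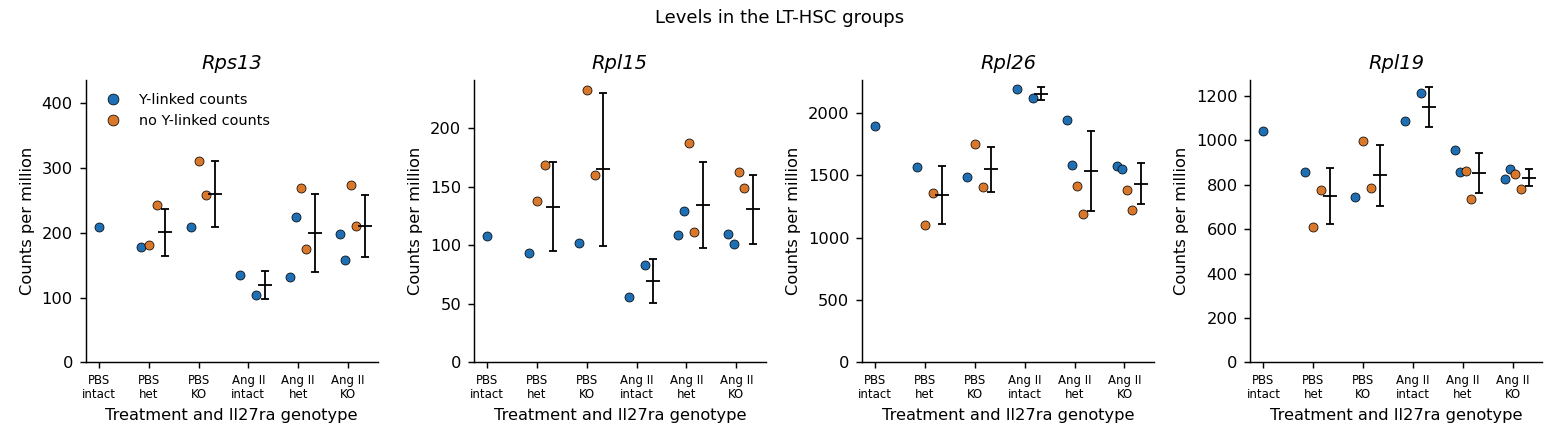
CPM of *Rps13*, *Rpl15*, *Rpl26* and *Rpl19* in the LT-HSC libraries, by treatment and genotype (het, heterozygous; KO, knockout), with group mean and SD. Orange marks libraries without Y-linked counts.

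In HPC-1, 0 of 79 members were called between Ang II and PBS by edgeR or DESeq2 in any genotype, and 0% of the 13199 tested genes were called by edgeR in each. Members with an unadjusted p under 0.05 numbered 0 in intact mice (3.18% of all genes), 3 in heterozygous mice, all higher (3.93%), and 0 in knockout mice (1.85%). In heterozygous mice *Rpl28*, of the large subunit, stood at 517, 541 and 613 CPM after PBS and 719, 888, 685 and 672 after Ang II without overlap, and *Rplp2* at 1386, 935 and 1059.5 against 2078, 1641, 1139.6 and 1145 with overlap. Their estimates were 0.40 ± 0.16 and 0.41 ± 0.18 log2, and 76 of 79 estimates over the members were positive (median 0.17, against 0 over all genes). The summed share in these libraries was 4.76%, 5.25% and 5.80% after PBS and 5.22%, 6.60%, 5.57% and 5.88% after Ang II, with overlap. The 6.60% of replicate 2 was the highest share of all libraries. Neutrophil granule genes in heterozygous HPC-1 summed to 2750, 2733 and 5270 CPM after PBS. After Ang II they summed to 7271, 6529, 6426 and 5512 CPM, without overlap. The part of other cells was not tested. The medians over the members were −0.02 in intact and −0.02 in knockout mice. *Rpl30* (0.41 ± 0.26) and *Rplp1* (−0.38 ± 0.24) in intact mice, and *Rps27l* (0.28 ± 0.31) and *Rpl41* (−0.30 ± 0.27) in knockout mice, were among the furthest from 0.

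Between genotypes in HPC-1, 0 members were called by edgeR or DESeq2 in the 6 comparisons. After PBS, knockout against intact had 2 members at an unadjusted p under 0.05, *Rpl30* (0.60 ± 0.26) and *Rpl37* (−0.86 ± 0.38), against 6.55% of all genes, where 2 genes (0.0152%) were called. Knockout against heterozygous had 0 members (1.14% of all genes; 0% called) and heterozygous against intact 0 (4.78%; 0% called). After Ang II, knockout against intact had 0 members at that p (5.01%; 0% called), knockout against heterozygous 5, all lower (2.83%; 0% called), and heterozygous against intact 2, both higher (7.38%; 0% called). In knockout against heterozygous mice these included *Rpl13a*, at 3058, 2693, 1732 and 1913 CPM in heterozygous and 1635, 1614, 1744 and 2053 in knockout mice (−0.42 ± 0.15), and *Rplp2*, at 2078, 1641, 1139.6 and 1145 against 1045, 1102, 1097 and 1152 (−0.45 ± 0.17). For both genes the first 2 heterozygous libraries lay above all knockout libraries and the other 2 lay among them. *Rps10* of the small subunit (0.49 ± 0.21) and *Rplp2* (0.38 ± 0.18) were the 2 members in heterozygous against intact mice. In all 3 genotype comparisons after Ang II the median over the members lay between −0.11 and 0.11 log2.

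The effect of Ang II was also compared between the cell types. In heterozygous mice 0 of 80 members were called by edgeR or DESeq2 and 0 had an unadjusted p under 0.05 (0% of genes called and 3.03% at that p), and in knockout mice the counts were 0, 0 and 0 (0% and 2.35%). In these, 71 and 64 of 80 estimates were negative, with medians of −0.19 and −0.14 log2, and without the LT-HSC library with HPC-1-like markers the knockout values were 46 of 80 and −0.03. The difference between knockout and intact after Ang II, compared between the cell types, had 0 members called by edgeR or DESeq2 where 9 genes (0.04996%) were called by edgeR, and 3 members had an unadjusted p under 0.05 against 9.87% of all genes. These were *Rpl38* (0.88 ± 0.41) and *Rpl15* (0.85 ± 0.40), both positive, and *Rpl13a* (−0.56 ± 0.27).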

How the data were processed

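The expected counts per gene deposited by the authors (RSEM, mm10) were used as given, and all values were whole numbers. Symbols and positions were taken from GENCODE M21. Members and marker lists were chosen with earlier results of these data known. Genes were filtered with filterByExpr and fitted by quasi-likelihood in edgeR 4.0.16 (R 4.3.3; TMM factors, limma 3.58.1), with 1 mean per group, over all libraries for cell type and within each cell type for treatment and genotype. P-values were adjusted over all tested genes (Benjamini-Hochberg), and members under 0.05 were called. The signs of estimates were counted over the members only and not over all genes. Genes were named if they were the study's reference gene, had a paralogue or a special role, had the smallest p-values of a comparison in each direction, or had an extreme level or spread. Values shown for genes with the smallest p-values are the values tested, so overlap or its absence adds no support. Genes shown by Y-linked counts were picked after seeing the values. Alternatives were DESeq2 1.42.0, other size factors and filters, a replicate block, a Y-linked covariate, added pseudogene counts, subsets of libraries, and each replicate left out.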

Additional observations from a re-analysis of the deposited data

Results flagged for a closer look

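A Dixon test of each library against the other 3 of its group flagged 7 of 128 tests (4 groups of 4, 31 members and the summed share), where about 1 in 20 groups would be flagged by chance. The summed share of the ribosomal protein genes was 5.71% in heterozygous LT-HSC replicate 3 after Ang II, against 4.40% to 4.63% in the other 3. *Rpl5* in the same library was 509.9 CPM, against 285 to 303. *Rpl10* was 753 CPM in knockout LT-HSC replicate 3 after Ang II, against 555 to 574. *Rpl4* was 1307 CPM in knockout LT-HSC replicate 1 after Ang II, against 1444 to 1465. *Rps27a* was 467 CPM in heterozygous LT-HSC replicate 4 after Ang II, against 683 to 711. *Rplp0* was 2546 CPM in knockout HPC-1 replicate 4 after Ang II, against 1412 to 1539.8. *Rps15a* was 428 CPM in heterozygous HPC-1 replicate 1 after Ang II, against 529 to 545.

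Of the symbols that fit the naming pattern, 5 belong to pseudogenes and were left out of the members. *Rpl6l* had 1671 counts over all libraries. *Rps12l1* had 9631 counts. *Rps3a2* had 5203 counts. *Rps3a3* had 410 counts. *Rps4l* had 659 counts.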

How the results depend on the processing

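The count of members lower in LT-HSC than in HPC-1 was 45 and lay between 39 and 50 with each replicate left out; it moved to 8 of 79 in the libraries without Y-linked counts (8 LT-HSC, 4 HPC-1) and was 55 in those with them. Both subsets were added after seeing the data. The other alternatives gave 38 to 62, among them 40 by DESeq2. *Rpl13a*, *Rpl22*, *Rpl29* and *Rps27l* were lower in all 48 settings, and 34 members in all but the libraries without Y-linked counts. The median over the members lay between −0.34 and −0.19 log2.

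Of 16 compared pairs of LT-HSC and HPC-1 libraries with equal treatment, genotype and replicate number, 4 differed in Y-linked counts. Whether the other pairs came from the same mouse was not resolved. The main fit used no pairing, and a replicate block gave 51 members lower in LT-HSC.

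For knockout against intact LT-HSC after Ang II, 0 members moved to 3 by DESeq2 (*Rpl19* −0.48, *Rpl26* −0.60, *Rpl37* −1.15), to 6 with no filter (*Rpl15* 0.94, *Rpl38* 0.84, *Rps13* 0.84, *Rps21* 1.07, *Rps29* 1.07, *Rpl37* −1.12) and to 1 without replicate 2 of both knockout LT-HSC groups (*Rps13* 0.93). For heterozygous against intact, 0 moved to 5 with no filter (*Rpl15* 0.98, *Rpl38* 0.89, *Rps21* 1.00, *Rps29* 0.95, *Rpl37* −0.92). Every other count of 0 stayed 0, and no result reversed. The summed share lay between 4.91% and 5.33% in LT-HSC and between 5.41% and 5.85% in HPC-1.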
